A study of Homo sapiens with 6 samples.

Results

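Classical cadherins and the transcription factors that govern the epithelial-mesenchymal transition (EMT) were followed in HepaRG, a human liver cell line whose cells can mature towards hepatocyte-like and bile duct-like forms. The genes were chosen by name: the cadherin genes CDH1, CDH2, CDH3, CDH6 and CDH17 and the regulator genes SNAI1, SNAI2, ZEB1, ZEB2 and TWIST1. Of these 10, 7 had a row among the 16659 genes analysed, and CDH3, CDH6 and SNAI1 were not analysed here. RNA was compared between 3 libraries of wild-type HepaRG cells, named as the control, and 3 libraries of HepaRG cells with a functional knockout of PXR, the pregnane X receptor, a nuclear receptor that many drugs activate. The labels describe the line as a liver cancer line of hepatic stem cell type, and no library came from drug-treated cells. The labels do not give how PXR function was removed, whether the knockout cells are 1 clone, or whether libraries came from separate cultures. The p-values therefore measure the spread between these libraries, which may be technical.

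Cadherins are calcium-dependent adhesion proteins of the cell surface. Classical cadherins bind p120 catenin and beta-catenin through their cytoplasmic tails, and alpha-catenin ties that complex to actin. In EMT, epithelial cells lose E-cadherin (CDH1) and often gain N-cadherin (CDH2), and factors of the SNAIL, ZEB and TWIST families repress CDH1 by binding E-box sequences in its promoter. Mature hepatocytes carry both E-cadherin and N-cadherin.

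Levels are given in scaled CPM, counts relative to a library size to which the authors had applied a factor. Log2 changes are knockout minus wild type of log2(scaled CPM + 0.5), where the 0.5 makes changes of weakly expressed genes look smaller than they are. They are given with their standard error (SE), and levels with their SD over n = 3 libraries per group. Estimated depths were 11359209 to 20945994 reads in wild type and 28154914 to 33393110 reads in the knockout, so every knockout library was the deeper. NR1I2, the gene of PXR, stood at 8.24, 7.04 and 7.60 CPM across wild-type libraries 1 to 3, against 13.1, 13.4 and 14.3 CPM across knockout libraries 1 to 3. A level summed over a gene does not check the loss of a working protein. By limma, 79.9% of the 16219 genes tested passed at an adjusted p of 0.05. Of all genes tested, 40.3% were called higher and 39.6% lower in the knockout, and 80.8% had groups that did not overlap.

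Among the cadherins, CDH1 and CDH17 were higher in the knockout and CDH2 was lower. All 4 regulators with a row, ZEB2, ZEB1, TWIST1 and SNAI2, were lower. CDH17 passed the filter on low values only through the knockout, where it was high, so it had to differ and its test is not counted. The other 6 genes all passed the test, with groups that did not overlap. As 79.9% of all tested genes were called, that share is not a result about these genes, and their changes are read by size. The median absolute log2 change over all genes tested was 0.47.

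CDH1 encodes E-cadherin, the main adhesion molecule of epithelial adherens junctions. The gene (ENSG00000039068.19, GRCh38 chromosome 16, 68737225 to 68835548, plus strand) measured 1.87, 1.20 and 2.29 CPM across wild-type libraries 1 to 3, against 50.1, 49.9 and 48.0 CPM across knockout libraries 1 to 3. Every knockout library lay far above every wild-type library, the nearest pair being 20.9-fold apart. The mean rose from 1.79 ± 0.55 to 49.3 ± 1.17 CPM (SD, n = 3 each), a ratio of 27.6 and a log2 change of 4.47 ± 0.14 (SE, limma adjusted p = 8.9e-13). The wild-type values rested on 98.7 estimated reads in all, against 4513 in the knockout. Of all tested genes, 99.0% had a smaller absolute change, and 1.09% rose by at least 4 on the log2 scale.

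CDH2 encodes N-cadherin, the cadherin of neural and mesenchymal cells that hepatocytes also carry. The gene (ENSG00000170558.9, GRCh38 chromosome 18, 27950966 to 28177446, minus strand) gave 169, 168 and 176 CPM across wild-type libraries 1 to 3, against 106, 102 and 106 CPM across knockout libraries 1 to 3. The 3 libraries of each group sat close together, and the groups were well apart. The mean fell from 171 ± 4.72 to 105 ± 2.26 CPM, a change of -38.7%, with a log2 change of -0.70 ± 0.031 (limma adjusted p = 4.0e-11). CDH2 remained abundant in the knockout, and 64.9% of tested genes had a smaller absolute change.

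CDH17 encodes liver-intestine cadherin, an atypical cadherin of gut epithelium with a short cytoplasmic tail that does not bind beta-catenin. Its gene (ENSG00000079112.10, GRCh38 chromosome 8, 94127171 to 94217303, minus strand) measured 0.0824, 0.239 and 0.495 CPM across wild-type libraries 1 to 3, against 3.88, 5.48 and 4.73 CPM across knockout libraries 1 to 3. These wild-type values were 1, 5 and 11 reads, so CDH17 was barely detected there. The log2 change was 2.77 ± 0.19, given as a description, as its test is not counted. The pooled read rate was 15.1 times as high in the knockout, with an exact 95% interval of 9.33 to 26.2 that covers counting error only.

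**Figure D1:**
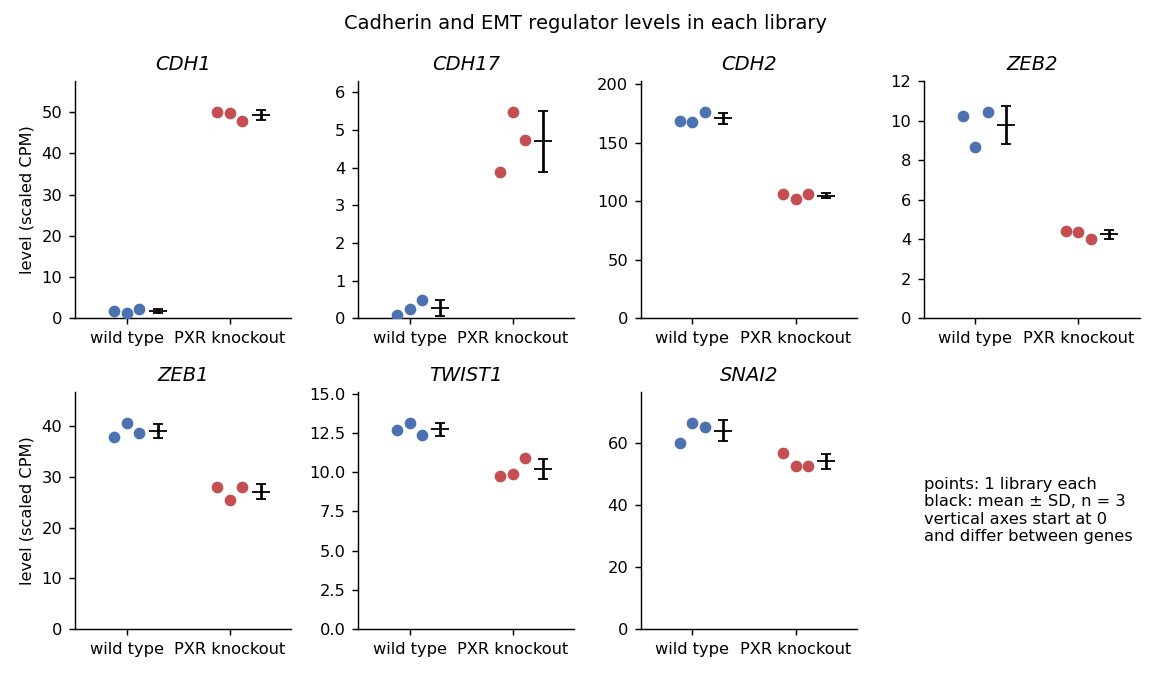
Level in scaled CPM (vertical axes, from 0, on a scale for each gene) of the 7 genes in 3 wild-type (blue) and 3 PXR knockout (red) libraries, 1 point per library, with the mean ± SD in black. CDH1 goes from 1.20 to 2.29 CPM in wild type up to 48.0 to 50.1 CPM, and the SNAI2 groups are the nearest to each other.

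Of the regulators, ZEB2 fell most. ZEB1 and ZEB2 encode zinc finger and homeobox proteins that bind pairs of E-boxes and repress epithelial genes. ZEB2 (ENSG00000169554.20, GRCh38 chromosome 2, 144364364 to 144524583, minus strand) measured 10.2, 8.66 and 10.4 CPM across wild-type libraries 1 to 3, against 4.40, 4.37 and 3.98 CPM across knockout libraries 1 to 3. Its lowest wild-type library was 1.97 times its highest knockout library. The mean fell from 9.77 ± 0.97 to 4.25 ± 0.23 CPM, with a log2 change of -1.11 ± 0.10 (limma adjusted p = 1.6e-07). A called fall of at least 2-fold was seen at 10.1% of tested genes.

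ZEB1 (ENSG00000148516.21, GRCh38 chromosome 10, 31318495 to 31529814, plus strand) measured 38.0, 40.7 and 38.6 CPM across wild-type libraries 1 to 3, against 27.9, 25.4 and 28.0 CPM across knockout libraries 1 to 3. The groups were apart by more than the range within either. The mean fell from 39.1 ± 1.43 to 27.1 ± 1.45 CPM, a change of -30.7%, with a log2 change of -0.52 ± 0.051 (limma adjusted p = 3.4e-07). ZEB1-AS1, a long non-coding RNA on the opposite strand that overlaps the start of ZEB1, was also lower, at 6.19 ± 0.71 against 2.73 ± 0.078 CPM (log2 change -1.05 ± 0.11, limma adjusted p = 9.5e-07). The library kit keeps the strand, but whether counting used it is not given in the sources used here. Reads of the stretch that the pair shares may therefore not be told apart.

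Because ZEB1 and its antisense partner were lower together, the stretch just upstream of ZEB1 is shown. It is the 250 bases before the first RefSeq start of ZEB1 (GRCh38.p14, chr10:31318167-31318416, plus strand), which lies inside the antisense gene as GENCODE places it. Capitals mark the letters of an E-box, CACCTG or its reverse complement CAGGTG, the 2 forms searched.
ZEB1: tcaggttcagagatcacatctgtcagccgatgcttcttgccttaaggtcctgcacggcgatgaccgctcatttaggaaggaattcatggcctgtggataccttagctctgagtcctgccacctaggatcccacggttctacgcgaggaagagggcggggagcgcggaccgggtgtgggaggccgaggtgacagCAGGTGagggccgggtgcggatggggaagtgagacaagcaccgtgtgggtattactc
The window held 1 match, which begins 57 bases before the start. Of 35116 RefSeq windows of this length, 17.5% held at least 1 match. Of the 7 measured genes, CDH2, ZEB1 and ZEB2 had a window in the table used, and the first windows of CDH2 and ZEB2 held no match. ZEB1 has 7 windows, of which the third held 2 matches and the others beyond the first none. A match describes letters only and shows no binding.

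TWIST1 and SNAI2 were the regulators with the smaller falls. TWIST1, a basic helix-loop-helix factor of mesoderm and neural crest, (ENSG00000122691.13, GRCh38 chromosome 7, 19020991 to 19117672, minus strand) measured 12.7, 13.2 and 12.4 CPM across wild-type libraries 1 to 3, against 9.76, 9.89 and 10.9 CPM across knockout libraries 1 to 3. The nearest libraries of the groups were 1.13-fold apart. The mean fell from 12.7 ± 0.40 to 10.2 ± 0.64 CPM (log2 change -0.31 ± 0.077, limma adjusted p = 0.00199). SNAI2, which encodes the zinc finger repressor SLUG, (ENSG00000019549.12, GRCh38 chromosome 8, 48917604 to 48921740, minus strand) measured 59.9, 66.4 and 65.1 CPM across wild-type libraries 1 to 3, against 56.8, 52.5 and 52.5 CPM across knockout libraries 1 to 3. Wild-type library 1 and knockout library 1 came within 1.06-fold of each other. The mean fell from 63.8 ± 3.43 to 53.9 ± 2.47 CPM, a change of -15.5% (log2 change -0.24 ± 0.046, limma adjusted p = 0.000255). Both changes were smaller than the median absolute change of all genes, with 35.7% of genes changing less than TWIST1 and 28.9% less than SNAI2.

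The size of the small falls moved with the scaling of the libraries. When every library was brought to the same total, which removes the authors' factor, the median log2 change of all genes moved from 0.01 to -0.12. On that scale SNAI2 stood at -0.38, TWIST1 at -0.44, ZEB1 at -0.66, CDH2 at -0.84 and ZEB2 at -1.24, while CDH1 stood at 4.35 and CDH17 at 2.69. Relative to the median of all genes, SNAI2 was at -0.25 with the deposited scaling and at -0.26 with equal sums, and CDH2 at -0.72 with both.

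**Figure D2:**
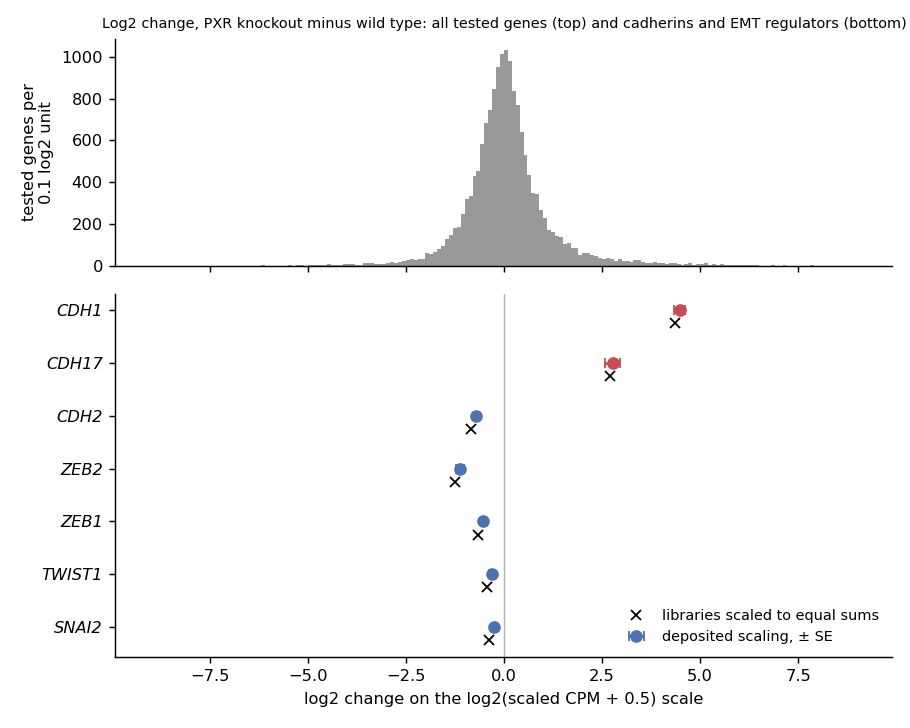
Log2 change, knockout minus wild type, of all 16219 tested genes (top, number of genes per bin) and of the 7 genes (bottom; red higher and blue lower, bars ± SE). Crosses give the change with libraries scaled to equal sums. CDH1 at 4.47 lies in the far right tail, while SNAI2, TWIST1, ZEB1 and CDH2 lie within the bulk of all genes.

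To set the genes beside one another, levels were divided by the merged exonic length of each gene in GENCODE 29. In wild type the order of mean levels in scaled CPM per kb was CDH2 (34.6 ± 0.95), SNAI2 (18.8 ± 1.01), TWIST1 (6.27 ± 0.20), ZEB1 (4.52 ± 0.17), ZEB2 (0.39 ± 0.039), CDH1 (0.289 ± 0.090) and CDH17 (0.0698 ± 0.053). The ranges of ZEB2 and CDH1 over the wild-type libraries overlapped, although ZEB2 was the higher within each library. The ranges of all other neighbours in that order were apart. In the knockout CDH2 (21.2 ± 0.46) and SNAI2 (15.9 ± 0.73) again came first, and CDH1 moved up to the third place with 7.98 ± 0.19. TWIST1 (5.01 ± 0.31), ZEB1 (3.14 ± 0.17), CDH17 (1.20 ± 0.21) and ZEB2 (0.17 ± 0.0093) followed, with no overlap between neighbours. The order of means was the same when the longest coding transcript of each gene gave the length. That choice, made after seeing the data, raised ZEB2 to 1.02 ± 0.10 in wild type and ended its overlap with CDH1, since its merged exons span 25058 bases against 9583 in that transcript.

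The balance of the 2 main cadherins was taken within each library, where the scaling between libraries cancels. Per kb, CDH1 amounted to 0.887%, 0.572% and 1.04% of CDH2 in wild-type libraries 1 to 3 and to 37.8%, 39.1% and 36.2% in knockout libraries 1 to 3. CDH1 thus stayed below CDH2 in all 6 libraries, and its share was 45.2 times as high in the knockout. The groups did not overlap, and the two-sided exact permutation p was 0.1, the smallest that 3 libraries against 3 can give. ZEB1 relative to ZEB2 was 1.58 times as high in the knockout (exact permutation p = 0.1), since ZEB2 fell more than ZEB1. Relative to CDH2, SNAI2 was 1.38, TWIST1 1.30 and ZEB1 1.13 times as high in the knockout, while ZEB2 went the other way, to 0.711 times its wild-type ratio (exact permutation p = 0.1 each). The ratio of CDH17 to CDH2 was 28.6 times as high in the knockout, given as a description. Its p-value was computed but is not counted, since CDH17 had to differ. In all 7 such ratios were computed, that of CDH17 among them, and the p-values were adjusted over the 7. Each of the others had groups that did not overlap and a Benjamini-Hochberg adjusted exact permutation p of 0.1. All but that of ZEB1 to ZEB2 share CDH2, so they are not independent. Of single genes tested, 80.8% had groups that did not overlap.

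**Figure D3:**
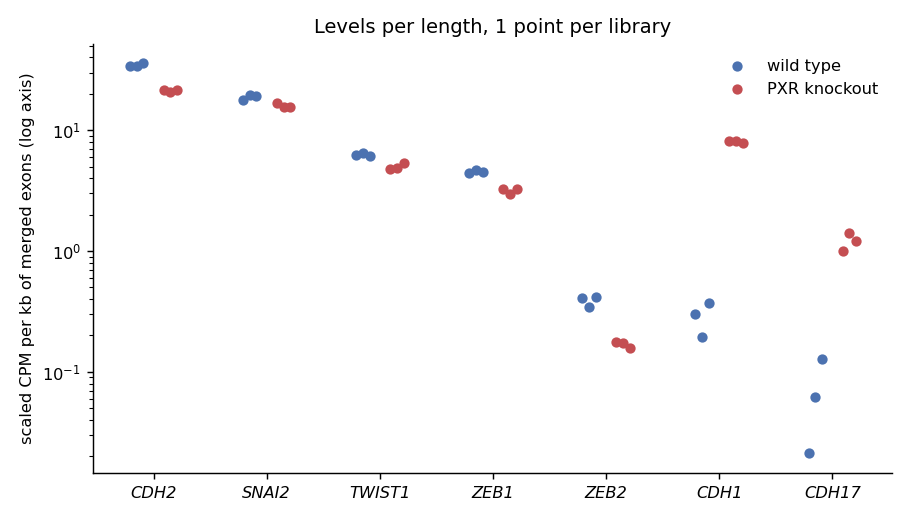
Level in scaled CPM per kb of merged exons (log axis) of the 7 genes in 3 wild-type (blue) and 3 knockout (red) libraries, 1 point per library, ordered by the wild-type mean. CDH1 moves from beside ZEB2 to the third place, and CDH2 and SNAI2 lead in both groups.

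Catenins and linkers, the partners of cadherins inside the cell, went both ways, while the nectins, adhesion molecules that span the membrane of the same junctions, were higher. All 4 nectin genes tested rose. Of the other 11 tested genes of that list, 7 rose and 4 fell, where 40.3% of all tested genes were called higher and 39.6% lower. The median log2 change of the whole list of 15 was 0.39 against 0.01 over all genes. In this and the following lists, a gene that was under 1 CPM in a whole group passed the filter only through the other group. CTNND1, for p120 catenin, rose from 121 ± 4.88 to 195 ± 1.70 CPM, and CTNNA1, for alpha-catenin, from 277 ± 8.65 to 347 ± 4.80 CPM. JUP, for plakoglobin, rose from 8.43 ± 0.80 to 21.6 ± 0.94 CPM. The beta-catenin gene CTNNB1 measured 542 ± 14.3 and 570 ± 4.55 CPM, a log2 change of 0.07 that turned to -0.064 with equal sums and -0.025 with quantile normalization (limma adjusted p = 0.0192, 0.0366 and 0.326). NECTIN4, a nectin of epithelial junctions, rose from 1.50 ± 0.45 to 79.3 ± 2.30 CPM, and NECTIN1 rose by 1.50 on the log2 scale. CTNND2, for the neural delta-catenin, fell from 2.60 ± 0.26 to 0.0227 ± 0.020 CPM. It passed the filter only through wild type, so it had to differ. VCL, for the actin linker vinculin, had a log2 change of -0.32 and CTNNAL1 one of -0.41.

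Other members of the cadherin superfamily went both ways. Of 9 other cadherin genes tested, 5 rose and 4 fell (median 0.55), against 40.3% higher and 39.6% lower over all genes. The largest rise was that of CDH16, the kidney cadherin, an atypical cadherin of the same kind as CDH17, from 5.12 ± 0.34 to 30.6 ± 1.65 CPM. Of the 8 others 4 rose and 4 fell. CDH10 rose from 2.66 ± 0.41 to 9.82 ± 0.26 CPM. CDH7 fell from 11.3 ± 0.75 to 0.25 ± 0.0030 CPM and CDH18 from 23.8 ± 0.60 to 10.4 ± 0.87 CPM, and CDH11, the cadherin of osteoblasts and fibroblasts, from 4.56 ± 0.145 to 3.10 ± 0.53 CPM. CDH7 passed the filter only through wild type, so it had to differ. Of 17 protocadherin, FAT and CELSR genes, 6 rose and 9 fell (median -0.16). FAT2 fell from 26.1 ± 0.81 to 0.0969 ± 0.025 CPM and PCDH17 from 31.3 ± 1.03 to 3.92 ± 0.50 CPM, whereas PCDH1 rose from 3.61 ± 0.65 to 17.6 ± 0.25 CPM and PCDH9 from 85.9 ± 0.87 to 224 ± 8.26 CPM. In that list FAT2 and DCHS2 passed the filter only through wild type and DCHS1 only through the knockout, so these had to differ.

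Desmosomes, the junctions that anchor keratin, gave few rows. Of 5 tested genes, 3 rose, 1 fell and 1 did not pass (median 0.16; over all genes 40.3% rose and 39.6% fell). DSP, for the plaque protein desmoplakin, rose from 454 ± 4.33 to 575 ± 13.4 CPM and PKP2, for plakophilin 2, fell from 67.2 ± 1.97 to 39.7 ± 0.83 CPM. DSG2, the desmoglein of simple epithelia, rose by 0.16 on the log2 scale, a call that ended with equal sums (log2 change 0.02, limma adjusted p = 0.521). With equal sums 1 of the 5 was called higher, and over all tested genes fewer were then called higher as well. Of called genes only, 41.1% were then higher, in place of 50.4%. The 1 of 5 is a count of tested genes, so it cannot be read against that share.

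Other transcription factors of both states were described next. Of 17 other EMT factors listed 10 were tested, of which 2 rose, 5 fell and 3 did not pass (median -0.33). The share called lower over all genes was 39.6% with the deposited scaling. With equal sums 8 of the 10 were lower, but calls over all genes moved the same way. Of all called genes, 41.1% were then higher, in place of 50.4%. These are shares of called genes, whereas the 39.6% is a share of tested genes. The 8 of 10 therefore cannot be read against them. TWIST2, the close relative of TWIST1, fell from 4.16 ± 0.61 to 0.585 ± 0.11 CPM and TCF3, for the E2A proteins, from 43.7 ± 1.18 to 34.0 ± 1.31 CPM. TWIST2 and SIX2, both among the falls, were under 1 CPM in every knockout library. They passed the filter only through wild type, so they had to differ and are not counted as support. SOX4 rose from 40.3 ± 2.81 to 68.6 ± 1.64 CPM and TCF4, for E2-2, from 15.7 ± 1.76 to 21.4 ± 0.96 CPM. Of 15 listed epithelial factors and splicing regulators only 8 were tested, of which 7 rose and none fell (median 1.08, against 40.3% of all genes called higher). The list is thus covered only in part. ESRP2, which directs epithelial splicing, rose from 26.5 ± 1.01 to 55.5 ± 3.28 CPM, the grainyhead factor GRHL1 from 1.94 ± 0.29 to 7.21 ± 0.71 CPM and the ETS factor ELF3 from 15.7 ± 1.75 to 43.8 ± 1.95 CPM. TFAP2A measured 1.70 ± 0.17 and 1.54 ± 0.042 CPM and did not pass.

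Genes that act with or on SNAIL, ZEB and E-cadherin were also mixed. Of 17 co-repressors and turnover factors, 8 rose, 7 fell and 2 did not pass (median -0.08), beside 40.3% higher and 39.6% lower over all genes. ZEB1 and ZEB2 recruit the paralogous C-terminal binding proteins. CTBP2 fell from 25.0 ± 0.40 to 1.93 ± 0.15 CPM, while CTBP1 measured 93.5 ± 2.94 and 108 ± 4.30 CPM, a rise of 0.20 on the log2 scale that no longer passed with equal sums (limma adjusted p = 0.0897). SIN3A, a scaffold for histone deacetylases, fell from 75.1 ± 2.19 to 37.5 ± 0.15 CPM, and the kinase gene PRKD1 rose from 11.3 ± 1.01 to 27.8 ± 1.54 CPM. Of 11 cadherin protease and endocytosis genes, 4 rose, 6 fell and 1 did not pass (median -0.15), beside the same shares over all genes. With equal sums 2 of the 11 were called higher, and over all tested genes fewer were then called higher as well. Of called genes only, 41.1% were then higher, in place of 50.4%. The 2 of 11 is a count of tested genes, so it cannot be read against that share. ADAM10, the protease that sheds E-cadherin and N-cadherin, had a log2 change of -0.15. ADAM15 fell from 242 ± 8.47 to 127 ± 8.54 CPM and the gamma-secretase subunit gene PSENEN from 35.6 ± 0.77 to 16.8 ± 1.21 CPM, while NUMB, for an endocytic adaptor, rose from 29.3 ± 2.21 to 60.2 ± 1.40 CPM.

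Structural genes of both states were then taken in turn. Of 17 listed epithelial genes 10 were tested, of which 7 rose, 2 fell and 1 did not pass (median 0.82). Over all genes 40.3% rose and 39.6% fell. KRT18 and KRT8, the keratin pair of simple epithelia, rose by 2.45 and 1.83 on the log2 scale. KRT7, a keratin low in both groups, fell from 1.57 ± 0.38 to 0.872 ± 0.084 CPM. ST14, for the protease matriptase, fell from 1.19 ± 0.14 to 0.479 ± 0.045 CPM. KRT7 and ST14 were under 1 CPM in every knockout library. They passed the filter only through wild type, so they had to differ and their falls are not counted as support. Of 15 listed mesenchymal genes 11 were tested, of which 3 rose, 6 fell and 2 did not pass (median -0.14), beside the same shares over all genes. FN1, for fibronectin, rose from 2846 ± 55.5 to 6003 ± 134 CPM and CALD1, for caldesmon, by 1.10 on the log2 scale. ITGA5, the fibronectin receptor subunit, fell from 596 ± 7.33 to 205 ± 7.91 CPM and S100A4 from 19.1 ± 0.31 to 4.72 ± 0.60 CPM. Genes of the mesenchymal list thus moved in both directions.

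**Figure D4:**
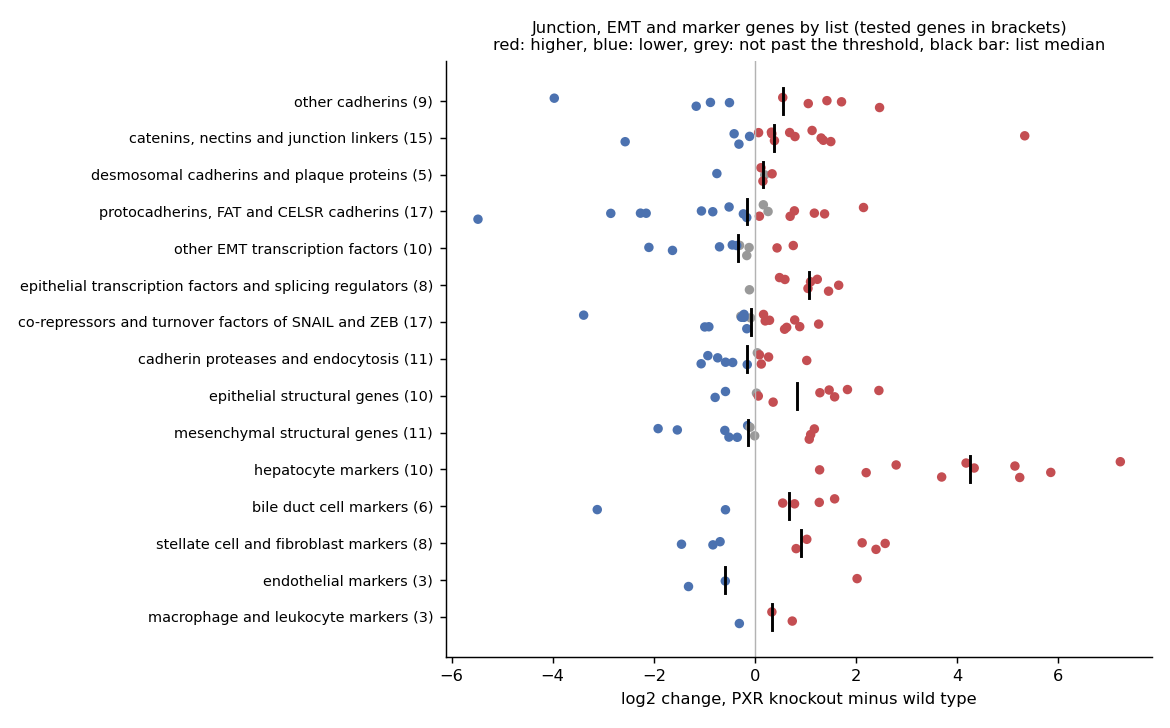
Log2 change, knockout minus wild type, of every tested gene in 15 lists (1 point per gene; red higher, blue lower, grey not past the threshold; black bars are list medians). The epithelial factors have a median of 1.08 and the hepatocyte markers one of 4.26, while the cadherin superfamily lists spread to both sides of 0.

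The cell type on the label was checked on marker genes. All 10 hepatocyte markers rose (median 4.26; 40.3% of all genes rose), and their summed level went from between 2295 and 2372 CPM in wild type to between 43197 and 44391 CPM in the knockout. APOA1, for the main protein of high-density lipoprotein, rose by 7.23 and ASGR1, for a hepatocyte lectin, by 5.86 on the log2 scale. ASGR1 passed the filter only through the knockout, so it had to differ. Of 10 bile duct markers 6 were tested, of which 4 rose and 2 fell (40.3% of all genes rose and 39.6% fell). Their summed level was 588 to 620 CPM in wild type and 621 to 653 CPM in the knockout, with KRT19 rising by 1.58, CD24 by 1.27 and SPP1 falling by 3.12 on the log2 scale. In bulk RNA, fewer cells of a type and less RNA per cell cannot be told apart.

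Markers of other cells also moved, where 40.3% of all tested genes were called higher and 39.6% lower. Of 10 listed stellate cell and fibroblast markers 8 were tested, of which 5 rose and 3 fell, and the summed level of the 9 with a row was 112 to 117 CPM in wild type and 494 to 517 CPM in the knockout. ACTA2 rose by 2.58 and DCN by 2.40 on the log2 scale, whereas PDGFRB had a change of -1.45 and LRAT one of -0.83. PDGFRB passed the filter only through wild type, so it had to differ. PDGFRA was at or under 1 CPM in all 6 libraries. Of 9 endothelial markers 3 had a row, of which 1 rose and 2 fell (median -0.58). PECAM1, among the falls, passed the filter only through wild type, so it had to differ. KDR rose from 53.3 ± 0.20 to 218 ± 3.93 CPM, while PECAM1 fell from 1.58 ± 0.055 to 0.353 ± 0.20 CPM and TIE1 from 1.35 ± 0.57 to 0.72 ± 0.27 CPM. Their summed level, nearly all of it KDR, was 55.8 to 57.1 CPM in wild type and 216 to 223 CPM in the knockout. Of 10 macrophage and leukocyte markers 3 had a row, of which 2 rose and 1 fell. CD68 rose from 11.3 ± 1.74 to 19.0 ± 0.44 CPM and LYZ from 2.21 ± 0.29 to 2.93 ± 0.39 CPM, while CD14 fell from 2.03 ± 0.071 to 1.55 ± 0.13 CPM. The 3, mostly CD68, summed to 13.6 to 16.8 CPM in wild type and 22.7 to 24.1 CPM in the knockout. No marker with a row was at 0 in every library. The part of these cell markers in the cadherin and regulator changes was not tested.

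Genes near CDH1 on the chromosome were described next. Of 38 tested genes that start within 1 Mb of CDH1, 22 rose, 9 fell and 7 did not pass, with a median log2 change of 0.37. Over all tested genes, 40.3% were called higher and 39.6% lower, and whether the neighbourhood departs from these shares was not tested. CDH1 lay above all of them, the next being LCAT, a plasma enzyme of cholesterol transport, at 2.05. NQO1, a quinone reductase gene that starts 990 kb downstream of CDH1, lay at -8.68, going from 633 ± 8.77 to 1.05 ± 0.12 CPM. The epithelial splicing gene ESRP2 starts 499 kb upstream and rose by 1.05. The median over all tested genes of chromosome 16 was -0.04. CDH17 (2.77) lay above all 15 tested genes within 1 Mb of its start, which had a median of -0.20 and a highest value of 2.10. The medians of the chromosomes of CDH2, CDH17, SNAI2, ZEB1 and ZEB2 lay between -0.06 and 0.03, and TWIST1 fell on chromosome 7, whose median was 0.43.

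**Figure D5:**
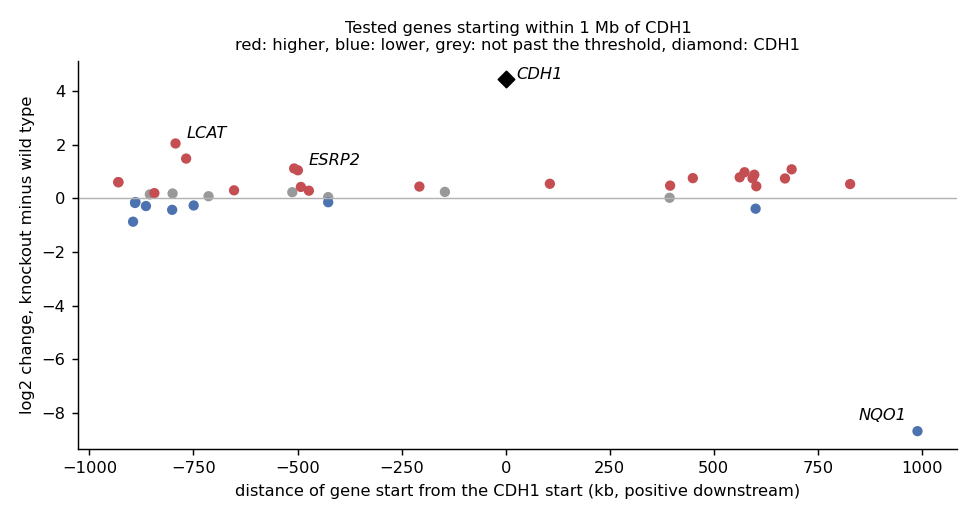
Log2 change, knockout minus wild type (vertical axis), of the 38 tested genes that start within 1 Mb of CDH1, against the distance of their start from the CDH1 start in kb (horizontal axis; red higher, blue lower, grey not past the threshold). CDH1 (diamond, 4.47) is the highest and NQO1 (-8.68) the lowest.

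The 3 tested genes outside the named members nearest to CDH1 over the 6 libraries, by Euclidean distance of log2(scaled CPM + 0.5), were PLGLB2, SRC and ABCC6P1. PLGLB2 lay at a distance of 0.26, with levels of 1.74 ± 0.43 and 52.8 ± 0.86 CPM. SRC, the tyrosine kinase gene, lay at 0.56, with levels of 1.76 ± 0.40 and 41.7 ± 2.32 CPM. ABCC6P1 lay at 0.66, with levels of 1.98 ± 0.34 and 45.2 ± 0.96 CPM. PLGLB2 and ABCC6P1 have near-identical copies elsewhere in the genome, so their levels are uncertain.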

How the data were processed

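The 3 wild-type and 3 PXR knockout libraries were prepared with a strand-keeping mRNA kit and read from both ends, per the labels' protocols. Bowtie2, Trim Galore, FastQC, limma and edgeR stand in the submitters' processing notes beside hg38, without versions or roles. The authors deposited a linear normalized signal, called scaled CPM here although the table is named for log2 values. What 1 read is worth was taken as the largest step that put most low values on whole multiples, which gave the estimated depths. Values under 20 reads fell on hundredths of that step (tolerance 0.05 of a hundredth). As 67.9% to 76.6% of them were whole reads (tolerance 0.006), no count test was run. From 16673 rows, 14 second pseudoautosomal copies were left out. Of 16659 identifiers, 16608 matched GENCODE 29 on GRCh38 without their version, the source of coordinates and lengths.

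Genes above 1 scaled CPM in at least 3 of 6 libraries were tested with limma 3.58.1 in R 4.3.3 on log2(scaled CPM + 0.5), by group and two-sided, with the prior variance following the mean level. The threshold was a Benjamini-Hochberg adjusted p of 0.05 over the 16219 genes. In simulated libraries with 15888 genes, the fit recovered 88% of 1.5-fold changes and 100% of 2-, 4- and 8-fold changes, with 8 false among 202 calls. Only 50 genes were changed at each fold, with a fixed dispersion of 0.005, whereas 79.9% of genes were called in the data. The simulation therefore checks the code and does not give the error rate here. Smaller changes, such as those of ZEB1, TWIST1 and SNAI2, were not simulated. By the mean chi-square per gene (2.25 to 9.80) no library pair agreed within sampling noise, and each library was counted once. The median per gene was lower, at 0.636 to 0.913, and was not compared with its own value under sampling noise. The members and lists were chosen with earlier results of these data known. Text names all members with a row, NR1I2, up to 2 largest rises and falls per list, a fixed set of junction and EMT genes and the 3 genes most like CDH1; ZEB1-AS1, LCAT, NQO1, PDGFRA and TFAP2A were named after their values were seen. Some genes that this rule takes are not reported here. Alternatives were other pseudocounts, filters, scalings, variance settings, a replicate block and leaving out each library. RefSeq promoter windows are of GRCh38.p14. Python 3.11.15 with scipy 1.17.1, numpy 2.4.6, pandas 2.3.3 and matplotlib 3.10.9 made the tables and figures.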

Additional observations from a re-analysis of the deposited data

How the results depend on the processing

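Under 15 alternatives, 90 of 90 values of the 6 genes other than CDH17 kept their direction and their call, with limma adjusted p values up to 0.0109. CDH17 had to differ and is not counted as support. Requiring more than 1 CPM in all 6 libraries removed CDH17 from the test, which left 6 genes called and 1 called higher. Leaving out each library in turn gave 12444 to 12887 of the 16219 genes called across the table, 6267 to 6494 higher and 6177 to 6393 lower. Each time the 6 genes other than CDH17 were called, CDH1 higher and the other 5 lower. With equal sums, 41.1% of called genes were higher, in place of 50.4%. Of the other genes named, the beta-catenin gene CTNNB1 reversed, to -0.064 with equal sums and -0.025 with quantile normalization. Calls for CD14, LYZ and TIE1, all low, were lost under 5 or more alternatives each. Replicate numbers do not pair the libraries: deviations of same-numbered libraries correlated at -0.0204, -0.0614 and 0.0249, and a fit with the replicate block called 12916 genes in place of 12960. Depth limits CDH17, which rested on 17 wild-type reads.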
